A study of Homo sapiens with 6 samples.

Results

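The genes described here are 38 antioxidant and detoxification genes. Among them are the transcription factor NRF2 (gene NFE2L2), its repressor KEAP1, and enzymes of glutathione, thioredoxin, peroxide and superoxide metabolism. Enzymes of the pentose phosphate pathway and malic enzyme are grouped here under NADPH supply. Also included are exporters and transferases of glutathione conjugates, aldo-keto reductases and the glyoxalases. The 38 genes were taken by name, as every probe set whose only gene symbol on the platform is one of them. This gave 87 of 49395 probe sets, for 36 of 18132 genes. PRDX5 and SOD2 had no probe set of their own symbol alone and are not analysed here. RNA came from the established human colorectal cancer line HCT116, taken 72 h after lentiviral delivery of a control short hairpin RNA (sh-Ctrl, 3 arrays) or of one directed at PNO1 (sh-PNO1, 3 arrays). PNO1 is a nucleolar factor needed to mature the small ribosomal subunit. All 6 samples carry a lentivirus. The labels name 1 control and 1 PNO1 hairpin, and they do not tell whether a replicate was a culture of its own. The p-values therefore speak of the spread among these 6 arrays alone, part of which may be technical. With 1 PNO1 hairpin, effects of the loss of PNO1 and other effects of that hairpin cannot be told apart.

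NRF2 is a transcription factor that KEAP1 holds in the cytoplasm and hands to a CUL3 ubiquitin ligase for destruction. When electrophiles or oxidants modify KEAP1, NRF2 is spared, pairs with a small MAF protein and binds antioxidant response elements in front of many of the genes described here. Glutathione, made by the glutamate-cysteine ligase GCLC and GCLM and then by GSS, and thioredoxin are the main thiol reductants of the cytosol, and each is restored with NADPH. The glyoxalases GLO1 and HAGH use glutathione as a cofactor to turn methylglyoxal, a reactive by-product of glycolysis, into lactate. The KEAP1 and NRF2 proteins are controlled largely by their turnover and by chemical modification, which an expression array does not measure.

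Values are intensities on a linear scale, and a fold change is the log2 mean of sh-PNO1 minus that of sh-Ctrl with its standard error (SE) from limma, fitted over all genes. A gene is represented by its brightest probe set, and it rose or fell where its adjusted p was under 0.05. The PNO1 transcript was at 532 to 535 on the 3 sh-Ctrl arrays and 105 to 108 on the 3 sh-PNO1 arrays, and its other probe sets were at 29.1% and 28.7% of the control signal. Array medians lay between 25.6 and 25.9. Of 8 epithelial markers, KRT18 (mean intensity 2469 in sh-Ctrl), KRT19, EPCAM and KRT8 were bright, while VIL1 and TSPAN8 were below 5 in each group. KRT19 (0.37) and CDH1 (0.31) rose. The 9 measured markers of blood, stromal, endothelial and liver cells gave 0 calls in limma; their summed intensity was 120 to 124 on sh-Ctrl arrays and 125 to 127 on the others, and the brightest had a mean of 37.5. At an unadjusted p under 0.05, CD3E was higher and DCN and ALB were lower. The 3' over 5' difference of the GAPDH control probe sets, a sign of RNA quality, separated the groups slightly, at -0.03 to -0.01 on the control arrays and -0.08 to -0.06 on the sh-PNO1 arrays (log2 scale). The sh-PNO1 replicate 2 array had the largest such difference for ACTB, 2.25 against 1.73 to 1.87 on the other arrays. The part of these differences in the results was not tested. In a bulk extract, fewer cells that express a gene and less RNA per cell cannot be told apart.

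Of the 36 measured genes, 12 fell and 2 rose in sh-PNO1, and 22 did not pass. Over all genes tested, 14.2% fell, 20.0% rose and 34.1% passed in either direction. The total of 14 genes (38.9%) was thus near the background, and so was the count of genes whose groups did not overlap (19 of 36, against 44.7%). The balance of directions was the other way round. All 9 changes of at least 0.3 on the log2 scale among these genes were decreases, where over all genes 8.08% fell and 9.38% rose by as much, 17.5% in all. The median log2 fold change of the 36 genes was -0.06, against 0.03 for all genes. Counted by probe set, 29 of 87 fell and 4 rose, against 13.2% and 14.8% of all probe sets (28.0% in either direction), and the groups did not overlap for 48 of the 87, against 40.2%.

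**Figure D1:**
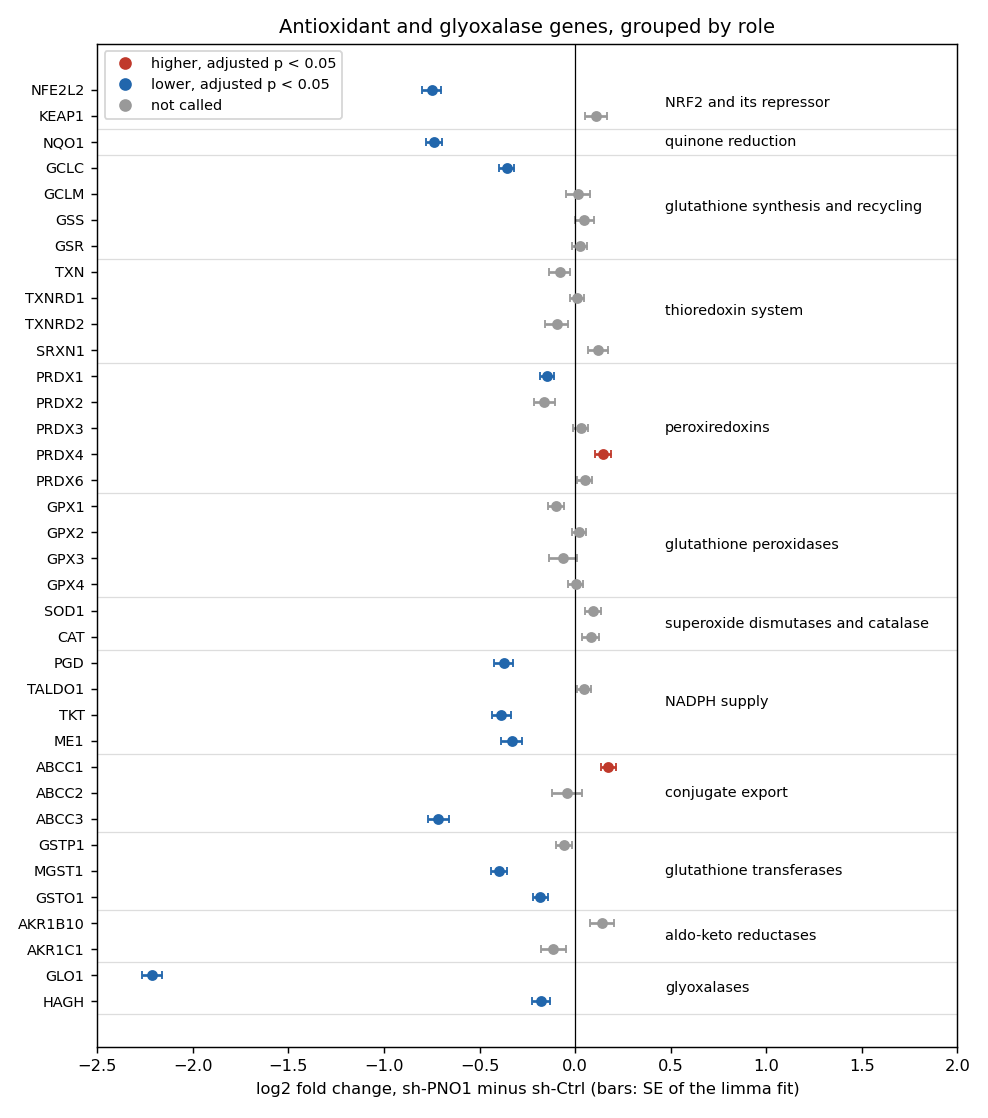
Log2 fold change (sh-PNO1 minus sh-Ctrl, horizontal axis) of the brightest probe set of each of the 36 measured genes, grouped by role; points are limma estimates from 3 arrays a group and bars are their SE. GLO1 at -2.21 stands far to the left, NFE2L2, NQO1 and ABCC3 lie between -0.75 and -0.72, and the thioredoxin and glutathione peroxidase genes lie close to 0.

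The transcript of NRF2 itself fell. NFE2L2 was at 1205, 1258 and 1255 in sh-Ctrl and at 776, 737 and 698 in sh-PNO1. The groups were far apart, and the sh-PNO1 mean was 59.5% of the control (-0.75 ± 0.05 SE on the log2 scale, limma adjusted p = 2.44e-05). The second NFE2L2 probe set went from 743 ± 13.0 (SD, n = 3) to 377 ± 24.8 (SD, n = 3), a change of -0.98 ± 0.06 SE. KEAP1, the adaptor that marks NRF2 for degradation, was at 247, 225 and 247 in sh-Ctrl and at 275, 251 and 250 in sh-PNO1. Its groups did not overlap, but the difference did not pass (0.11 ± 0.06 SE, 95% interval -0.02 to 0.24, limma adjusted p = 0.184). On each array NFE2L2 was set against KEAP1: the log2 difference between their probe sets was 2.37 ± 0.10 (SD, n = 3) in sh-Ctrl and 1.51 ± 0.04 (SD, n = 3) in sh-PNO1. This is 1 of 3 pairs compared in this way after their values were seen; the exact two-sided permutation test gives p = 0.1 for each, also after Benjamini-Hochberg adjustment, which is the smallest value that 3 arrays against 3 allow.

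NQO1, which reduces quinones by 2 electrons and is a much used readout of NRF2 activity, was at 1636, 1556 and 1636 in sh-Ctrl and at 995, 948 and 952 in sh-PNO1. The groups were well separated (log2 fold change -0.74 ± 0.04 SE, limma adjusted p = 1.34e-05). Its second probe set fell further, from 1026 ± 56.7 (SD, n = 3) to 466 ± 11.9 (SD, n = 3), a change of -1.14 ± 0.05 SE.

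In glutathione synthesis and recycling 1 gene of 4 fell, where over all genes 14.2% fell. GCLC, the catalytic subunit of glutamate-cysteine ligase, was at 299, 296 and 289 in sh-Ctrl and at 222, 235 and 232 in sh-PNO1. Each sh-PNO1 array was below each control, at 78.0% of the control mean (log2 fold change -0.36 ± 0.04 SE, limma adjusted p = 0.000351), and the 4 GCLC probe sets ranged from -0.43 to -0.36 and each fell. GCLM, the modifier subunit that lets the same enzyme work at cellular glutathione levels, did not pass: 590, 533 and 569 in sh-Ctrl, 614, 544 and 554 in sh-PNO1, with a difference of 0.02 and a 95% interval of -0.13 to 0.16. The log2 difference of GCLC from GCLM on an array was -0.94 ± 0.08 (SD, n = 3) in sh-Ctrl and -1.31 ± 0.14 (SD, n = 3) in sh-PNO1, without overlap, with the exact permutation p of 0.1 given above. GSS, the second enzyme of glutathione synthesis, stood at 0.05 (interval -0.07 to 0.16), and GSR, which reduces oxidised glutathione with NADPH, at 0.02 (interval -0.07 to 0.12).

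Of the 4 genes grouped here under NADPH supply, 3 of the pentose phosphate pathway and malic enzyme, 3 fell. The decreases were of 0.33 to 0.39 on the log2 scale, where over all genes 14.2% fell. Not each of the 4 enzymes makes NADPH itself. TKT, a transketolase of the pentose phosphate pathway, was at 1527, 1430 and 1528 in sh-Ctrl and at 1167, 1095 and 1171 in sh-PNO1 (log2 fold change -0.39 ± 0.05 SE, with a limma adjusted p of 0.000526). PGD, which makes NADPH in the oxidative branch of that pathway, was at 257, 241 and 248 against 184, 189 and 203 (-0.37 ± 0.05 SE). ME1, the cytosolic malic enzyme, was at 411, 459 and 411 against 339, 350 and 328 (-0.33 ± 0.06 SE, limma adjusted p = 0.00234). In each of these genes the groups were apart and every probe set fell: 3 of 3 for TKT, 2 of 2 for PGD and 2 of 2 for ME1. TALDO1, the transaldolase, did not pass, at 0.05 (interval -0.04 to 0.13).

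**Figure D2:**
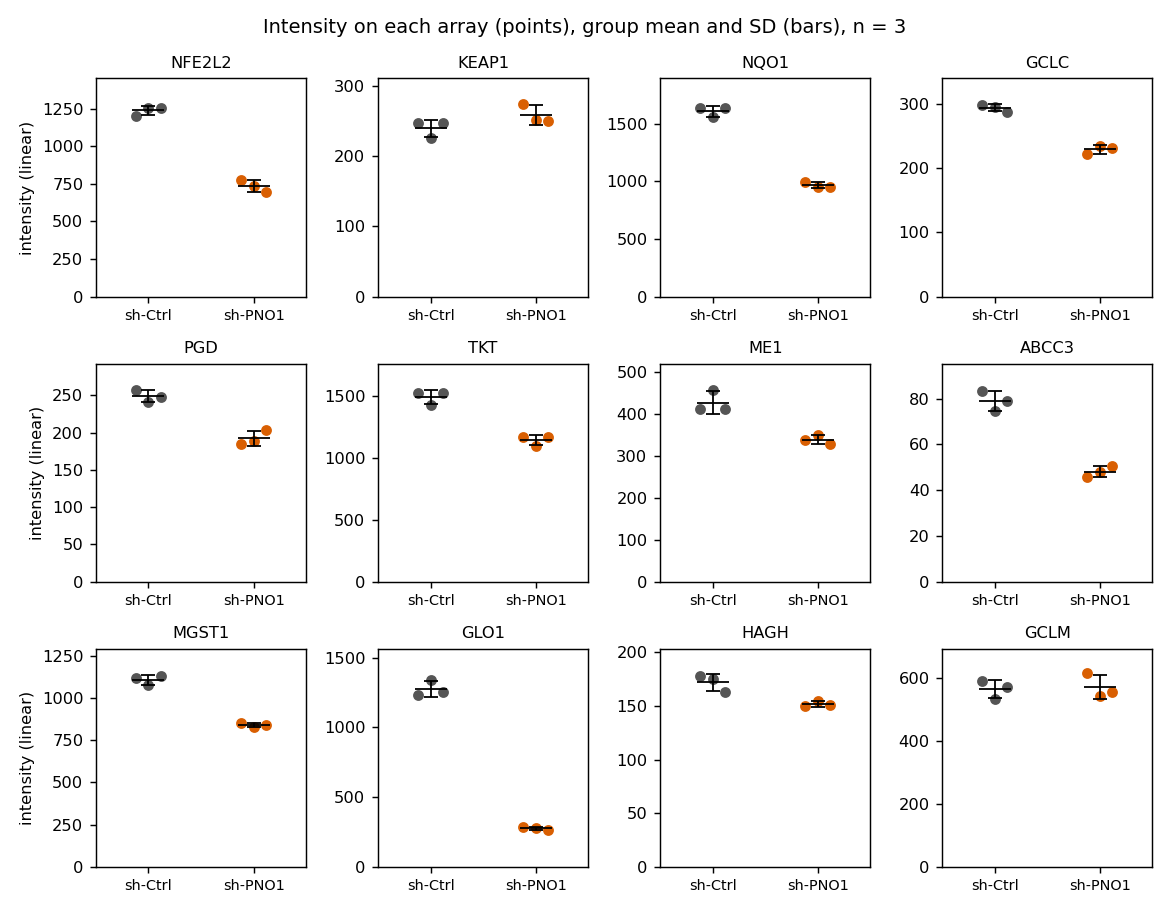
Intensity (linear scale, axes from 0) of 12 genes on each of the 6 arrays; points are arrays, horizontal bars are group means and vertical bars are SD with 3 arrays a group. The groups are apart in each panel but GCLM, where they overlap, and in KEAP1 the sh-PNO1 arrays are the higher ones by a narrow margin.

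Among the genes that handle glutathione conjugates, the direction differed from gene to gene. ABCC3, an exporter of conjugates at the basolateral membrane, was at 83.2, 74.6 and 79.1 in sh-Ctrl and at 45.8, 48.1 and 50.4 in sh-PNO1 (log2 fold change -0.72 ± 0.06 SE, limma adjusted p = 5.58e-05). That value rests on a probe set of the kind that can match several transcripts: the other ABCC3 probe set had overlapping groups, at -0.23 with an adjusted p of 0.121 over all probe sets in limma. ABCC1, the broadly expressed exporter of the same family, was at 243, 243 and 250 in sh-Ctrl and at 274, 281 and 274 in sh-PNO1. The groups were apart (0.17 ± 0.04 SE), but 1 of its 3 probe sets rose. With probe sets of several possible transcripts left out, ABCC1 stood at 0.10 (limma adjusted p = 0.107). ABCC2, the exporter of the apical membrane, was at -0.04 (interval -0.22 to 0.14).

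MGST1, a membrane-bound glutathione transferase that also reduces lipid peroxides, was at 1116, 1073 and 1131 in sh-Ctrl and at 852, 826 and 839 in sh-PNO1. The change of -0.40 ± 0.04 SE (limma adjusted p = 0.000186) was shared by its 3 probe sets, which ranged from -0.44 to -0.40. GSTO1, an omega-class transferase with dehydroascorbate reductase activity, was at 1539, 1495 and 1500 against 1359, 1301 and 1334 on its only probe set, a fall without overlap (-0.18 ± 0.04 SE). GSTP1, the pi-class transferase, did not pass, at -0.06 (interval -0.15 to 0.04).

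The thioredoxin system gave no call in limma. TXN, thioredoxin, stood at -0.08 (interval -0.21 to 0.05) and its cytosolic reductase TXNRD1 at 0.01 (interval -0.07 to 0.09). The mitochondrial reductase TXNRD2 was dim (mean intensity 34.1 in sh-Ctrl) and stood at -0.10 (interval -0.23 to 0.04). SRXN1, which repairs overoxidised peroxiredoxins, stood at 0.12. At an unadjusted p under 0.05, 1 of these 4 genes was higher, SRXN1, and 0 were lower. TXNRD1 and SRXN1 are NRF2 targets, as NQO1 is.

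Peroxiredoxins, most of which remove hydrogen peroxide with the help of thioredoxin, changed little on their brightest probe sets. PRDX1, the abundant cytosolic one, was at 4693, 4665 and 4671 in sh-Ctrl and at 4258, 4168 and 4246 in sh-PNO1, a small fall without overlap (-0.15 ± 0.04 SE, limma adjusted p = 0.0157). PRDX4, the peroxiredoxin of the endoplasmic reticulum, was at 1287, 1268 and 1246 against 1439, 1401 and 1364, higher in each sh-PNO1 array (0.15 ± 0.04 SE, limma adjusted p = 0.0252). It did not pass when sh-Ctrl replicate 2 or 3 or sh-PNO1 replicate 1 or 2 was left out (limma adjusted p of 0.0636, 0.0752, 0.0548 and 0.0602). PRDX2 just missed the threshold, at -0.16 (limma adjusted p = 0.0504), with the sh-PNO1 arrays below the controls on its 5 probe sets, and the mitochondrial PRDX3 stood at 0.03. The 4 probe sets of PRDX6, which reduces phospholipid peroxides, did not move together: the brightest stood at 0.05, 1 rose (0.15) and the dimmer pair fell (-0.24 and -0.27). On that pair sh-PNO1 replicate 1 lay nearest the controls: 276 against 285 to 312 in sh-Ctrl on the dimmest.

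The glutathione peroxidases also gave no call in limma. GPX1 stood at -0.10 (interval -0.19 to -0.01) with groups that did not overlap on its 2 probe sets, and GPX4, the peroxidase that guards membranes from lipid peroxidation, at 0.003 (interval -0.09 to 0.10). GPX2 and GPX3 were dim, with mean intensities of 16.0 and 8.43 in sh-Ctrl. At an unadjusted p under 0.05, 1 of the 4 was lower, GPX1, and 0 were higher. SOD1, which turns superoxide into hydrogen peroxide, stood at 0.09 and CAT, catalase, at 0.08, and neither passed, 0 of 2 also at an unadjusted p under 0.05. For SOD1, 1 of 3 probe sets rose (0.13, limma adjusted p = 0.0447 over all probe sets). The aldo-keto reductases AKR1B10 (mean 19.8 in sh-Ctrl) and AKR1C1 (4.82) were dim and did not pass, and AKR1C1 shares most of its sequence with its paralogs, so its probe sets may report more than 1 gene.

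The largest change among the 36 genes was in the first step of the glyoxalase pathway. GLO1, which isomerises the methylglyoxal-glutathione adduct, was at 1231, 1343 and 1254 in sh-Ctrl and at 283, 281 and 262 in sh-PNO1. The mean was 21.6% of the control (log2 fold change -2.21 ± 0.05 SE, limma adjusted p = 4.61e-07), next to 19.8% for PNO1, the targeted gene. GLO1 was the only 1 of the 36 genes past a 2-fold change on its brightest probe set, a size reached by decreases in 0.734% of all genes. Its other probe sets fell as far: from 609 ± 38.7 (SD, n = 3) to 107 ± 3.71 (SD, n = 3), from 469 to 87.8, and from 330 to 71.7, so that the 4 ranged from -2.51 to -2.20. No array of one group came near the other group on any of them. Whether the fall of GLO1 follows from the loss of PNO1 or from the hairpin itself was not tested.

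HAGH, the second enzyme, which hydrolyses the lactoylglutathione that GLO1 makes, fell far less. It was at 178, 175 and 163 in sh-Ctrl and at 150, 155 and 151 in sh-PNO1, without overlap (-0.18 ± 0.05 SE, limma adjusted p = 0.0188), and 2 of its 3 probe sets fell. The call was lost without sh-Ctrl replicate 1 or 2 or sh-PNO1 replicate 1 or 3 (limma adjusted p of 0.0659, 0.0656, 0.0528 and 0.0543). The log2 difference of GLO1 from HAGH on an array was 2.89 ± 0.09 (SD, n = 3) in sh-Ctrl and 0.86 ± 0.06 (SD, n = 3) in sh-PNO1, with the exact permutation p of 0.1 given above.

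For most of the larger changes the probe sets of a gene moved together, ABCC3 being the exception. Among the 30 measured genes that have several probe sets, all of these fell in 8: NFE2L2, NQO1, GCLC, PGD, TKT, ME1, MGST1 and GLO1. Over all 11734 genes with several, 5.77% did. GSTO1 and PRDX1 have 1 probe set each, so theirs cannot be compared. The 22 genes that did not pass had log2 fold changes from -0.16 to 0.14.

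**Figure D3:**
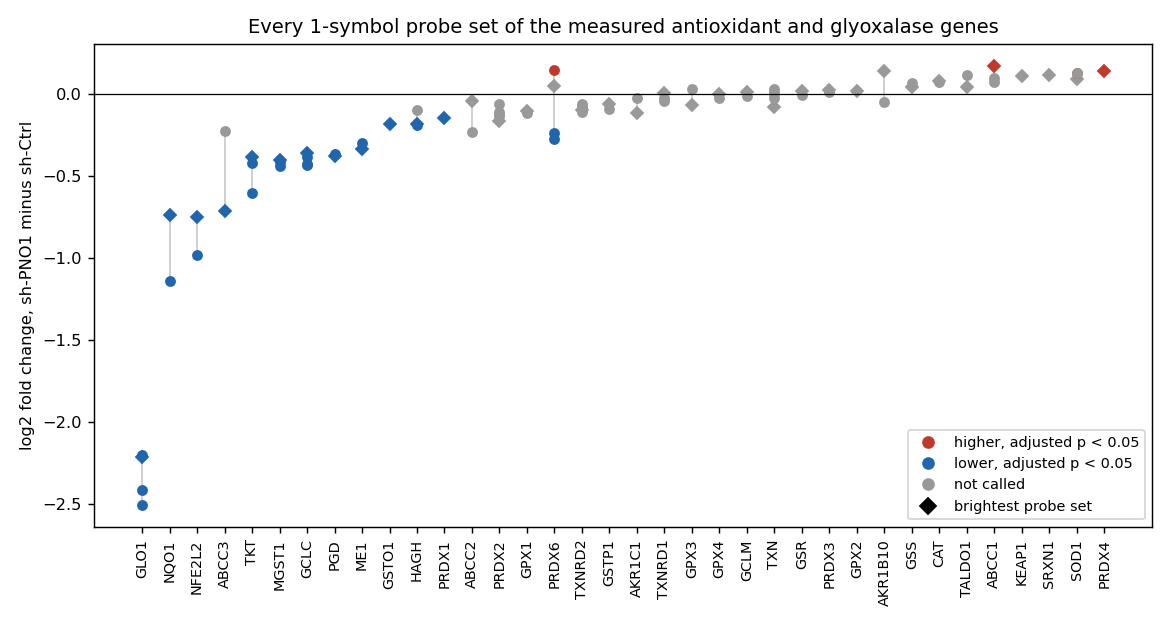
Log2 fold change (vertical axis) of each of the 87 probe sets, with genes ordered by their median; diamonds mark the brightest probe set of a gene and lines join probe sets of a gene. The 4 GLO1 probe sets lie together between -2.51 and -2.20, the ABCC3 pair is split, and the PRDX6 probe sets lie on either side of 0.

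Since NRF2 acts through antioxidant response elements, the promoters in RefSeq (GRCh38.p14, 250 bases before to 50 bases after a transcript start) were searched for the core of that element, TGACNNNGC, on both strands. The table held 44 promoters for 30 of the 38 genes. The core was in 10 of the 44 (22.7%), and in 13.9% of the 20403 promoters of genes on the array. The form TGACTCAGC, which has the same length with every base given and is a subset of the core, was in 2 of the 44, those of GSTP1 and ME1, and in 0.529% of the promoters of genes on the array. The stretches below run 5' to 3' along the strand of the gene, all before the start, and show the match in capitals. They were chosen to set genes that fell (ME1, PGD, GSTO1) beside genes that did not pass (GSTP1, GCLM, TXNRD1 at 2 of its starts).
ME1, chr6:83431155-83431214, minus strand: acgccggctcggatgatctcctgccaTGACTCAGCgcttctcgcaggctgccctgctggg
PGD, chr1:10398837-10398896, plus strand: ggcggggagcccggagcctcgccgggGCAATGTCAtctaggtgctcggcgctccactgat
GSTO1, chr10:104254642-104254701, plus strand: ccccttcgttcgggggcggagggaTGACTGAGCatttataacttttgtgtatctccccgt
GSTP1, chr11:67583720-67583779, plus strand: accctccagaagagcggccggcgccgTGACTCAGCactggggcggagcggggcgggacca
GCLM, chr1:93909431-93909490, minus strand: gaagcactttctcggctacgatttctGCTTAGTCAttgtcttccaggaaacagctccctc
TXNRD1, chr12:104215654-104215713, plus strand: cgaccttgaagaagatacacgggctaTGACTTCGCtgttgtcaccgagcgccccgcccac
TXNRD1, chr12:104286904-104286963, plus strand: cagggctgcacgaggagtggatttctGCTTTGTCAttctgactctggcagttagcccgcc
In the PGD, GCLM and second TXNRD1 stretches the core lies on the opposite strand, so the capitals read as its reverse complement. KEAP1, GPX2 and MGST1 held the core as well. Of the 9 genes with the core in a promoter, 4 fell, and of the 19 measured genes without it in these windows 6 fell and 1 rose. GLO1, NFE2L2, NQO1, GCLC, TKT and HAGH, which fell, had no match in theirs. Over all genes on the array with a promoter in the table, 16.6% of 2620 genes with the core fell and 23.0% rose, against 14.4% and 20.3% of 11805 without it. A match is a string of letters and not a bound site, and elements farther upstream lie outside these windows.

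The rest of the same pathways was measured for 85 of 95 listed genes. In these, 21 fell and 14 rose (41.2% in all), with a median log2 fold change of 0.02, against 14.2% and 20.0% of all genes. Of 10 partners and regulators of NRF2, 1 fell and 0 rose in limma, also at an unadjusted p under 0.05. The small MAF genes MAFF and MAFG stood at 0.04 and 0.03, the ligase gene RBX1 at 0.06, and SQSTM1, which can draw KEAP1 into autophagy, at -0.01. The probe sets of CUL3, the scaffold of that ligase, were split: the brightest stood at 0.04, while 1 of the other probe sets fell from 98.0 ± 6.03 (SD, n = 3) to 67.5 ± 1.65 (SD, n = 3), a change of -0.54 (limma adjusted p = 0.000247 over all probe sets). The gene that fell, named after its value was seen, was the relative NFE2L3 (-0.47 ± 0.05 SE), on 1 of its 2 probe sets.

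Of 15 other NRF2 targets 6 fell and 1 rose, where over all genes 14.2% fell and 20.0% rose. HMOX1, heme oxygenase, was the one that rose, from 91.7 ± 6.71 (SD, n = 3) to 188 ± 10.6 (SD, n = 3) (1.04 ± 0.07 SE, limma adjusted p = 2.04e-05), on 3 of 3 probe sets. Each sh-PNO1 array was above each control for HMOX1, and below for NFE2L2 and NQO1. Those that fell included ABCC4 (-0.39, 2 of 4 probe sets lower), NQO2 (-0.36, its only probe set) and the ferritin light chain FTL (-0.12, 6 of 8), named after their values were seen. SLC7A11, the cystine transporter that feeds glutathione synthesis, did not pass on its brightest probe set (0.05), but 2 of its 3 probe sets rose, by 0.18 and 0.24. SLC3A2, of the glutathione and cysteine genes, fell on 7 of 7 probe sets, from -0.48 to -0.26. It is named after its value was seen.

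Among 12 other glutathione and cysteine genes 4 rose and 2 fell, SLC3A2 and CHAC2, where over all genes 20.0% rose and 14.2% fell. GLRX2 (0.26), CTH (0.25) and GGCT (0.22) were higher, each on its only probe set, and so was CHAC1 (0.19). For CHAC1, 0 of its 2 probe sets passed in the fit over all probe sets. The choice to list these 4 was made with their values known. CHAC2, which breaks down glutathione, was at 177, 194 and 176 in sh-Ctrl and at 121, 116 and 104 in sh-PNO1 (-0.69 ± 0.07 SE) on its only probe set. Of 12 other glutathione transferases 2 fell and 1 rose (25% in all), below the 34.1% of all genes that passed in either direction. Of 10 other NADPH genes 4 fell and 0 rose, also at an unadjusted p under 0.05; NADK, the kinase that makes NADP, went from 151, 144 and 153 to 102, 95.9 and 119 (-0.51 ± 0.08 SE, 4 of 4 probe sets lower).

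Of 14 other genes listed with thioredoxin and the methionine sulfoxide reductases 5 rose and 1 fell, where over all genes 20.0% rose and 14.2% fell. Those that rose were the mitochondrial thioredoxin TXN2 (0.17), MSRB3, the sestrins SESN1 (0.43) and SESN2, and CCS (0.29), the copper chaperone of SOD1. CCS rose on 1 of its 2 probe sets, the other being at 0.06. The thioredoxin-like gene TXNL1 fell by 0.25, on 2 of its 3 probe sets, which ranged from -0.31 to 0.15. TXN2, SESN1, CCS and TXNL1 are named after their values were seen. MSRB3, a methionine sulfoxide reductase, went from 73.2, 73.2 and 71.9 to 140, 161 and 155 (1.06 ± 0.06 SE, 4 of 4 probe sets higher), and its change was 0.61 when probe sets of several possible transcripts were left out. SESN2, a stress-induced sestrin, rose from 126 ± 2.32 (SD, n = 3) to 188 ± 5.95 (SD, n = 3), a change of 0.57 with 2 of 2 probe sets higher.

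Of 12 other genes of methylglyoxal and aldehyde metabolism 5 fell and 3 rose, where over all genes 14.2% fell and 20.0% rose. ADH5, which clears formaldehyde as its glutathione adduct, was at 850, 838 and 881 in sh-Ctrl and at 455, 430 and 449 in sh-PNO1 (-0.95 ± 0.04 SE, limma adjusted p = 4.38e-06), with 2 of 2 probe sets lower. HAGHL, a relative of HAGH, went from 126, 118 and 128 to 78.3, 80.2 and 89.6 (-0.59 ± 0.06 SE, 2 of 2). GLOD4, which carries a glyoxalase-type domain, fell by 0.26 with 2 of 3 probe sets lower, named after its value was seen. The increases, named after their values were seen, were in LDHD (0.21, its only probe set), ALDH9A1 (0.17, 3 of 3) and ALDH1A3 (0.17). ALDH1A3 rose on 1 of its 5 probe sets, and their median was -0.09.

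**Figure D4:**
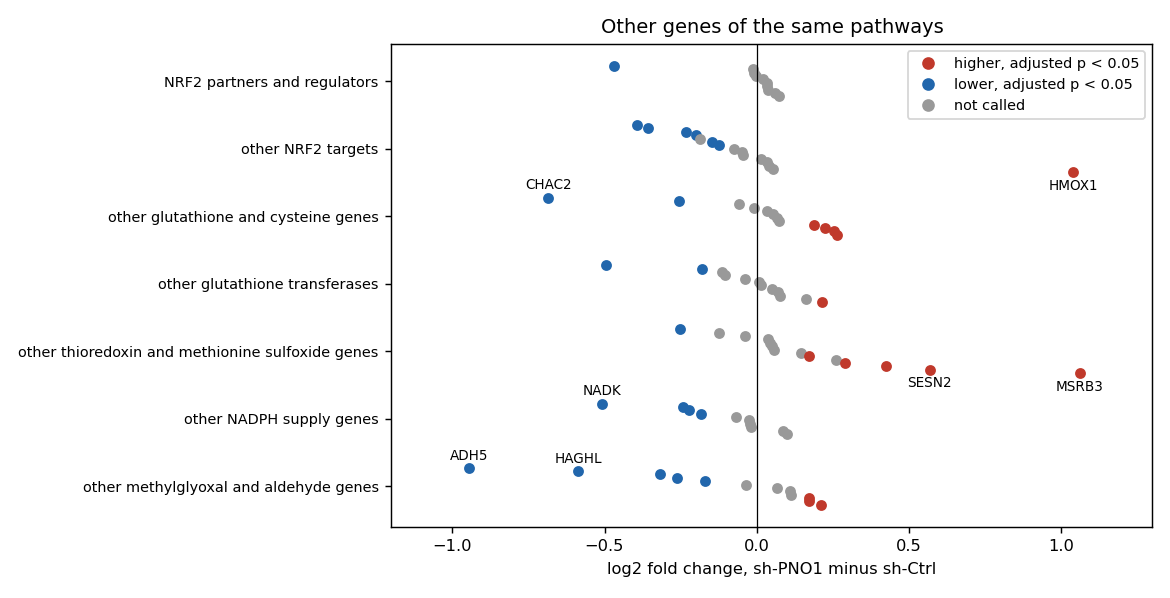
Log2 fold change (horizontal axis) of the brightest probe set of 85 other genes of the same pathways, grouped by list; colours show the limma call and names mark called changes of at least 0.5. HMOX1 and MSRB3 stand alone on the right above 1, and ADH5 is farthest to the left at -0.95.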

How the data were processed

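RNA of 6 HCT116 samples (100 ng of total RNA each, made into biotinylated cRNA per the labels' protocols) was hybridised to 1 Affymetrix array a sample. Intensities were deposited for 49395 probe sets on a linear scale; RMA is named per the submitters' processing notes, without a version; the sources used here give no software or build. RMA gives all arrays similar distributions, so changes are relative to other genes. Here log2 of the intensity was taken. Probe sets were named through the platform table: 102 were controls, 44988 had 1 symbol, 1832 several and 2473 were not listed. A gene was its brightest 1-symbol probe set. R 4.3.3 and limma 3.58.1 (lmFit, eBayes, no covariate) fitted all 18132 genes, and separately all 49293 probe sets that are no controls, with Benjamini-Hochberg adjustment over each. The fit was checked on simulated arrays with known changes in 200 of 18132 genes. Of log2 changes of 0.3, 0.5 and 1, it recovered 70.5%, 98% and 100%. The false share of its calls was 3.42%, 5.31% and 5.66%. Means of the 23 background probe sets ran from 2.53 to 773; 18 of the 36 genes exceeded the brightest in a group and 5 were dimmer than the median gene. The number of arrays limits precision. Samples were grouped by their titles. The genes, lists and tests were chosen with earlier results of these data known. Every gene of the set is named; values per array are given for those that passed with a log2 change of at least 0.3 and for NFE2L2, KEAP1, GLO1 and HAGH, and other pathway genes are named at 0.5; names beyond this rule are marked or serve as examples. Alternatives tried were a replicate block, eBayes with trend and robust set, array weights, repeated quantile normalisation, equal array medians, the dimmest 30% left out, averaged probe sets, no probe sets of suffix _x_at or _s_at (those that can match several transcripts), an adjusted p under 0.01, and each array left out.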

Additional observations from a re-analysis of the deposited data

How the results depend on the processing

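NFE2L2, NQO1, GCLC, PGD, TKT, ME1, MGST1, GLO1 and GSTO1 fell under every alternative run, GLO1 between -2.42 and -2.17 and NFE2L2 between -0.98 and -0.71. ABCC3 moved to -0.23 (adjusted p = 0.112) without probe sets of suffix _x_at or _s_at. Counts of decreases within the set of 36 genes stayed within 1.5 times: 10 to 14 genes and 20 to 36 probe sets. Counts of increases were small and moved: genes of the set that rose were 4 when eBayes used its trend and robust options, 1 without _x_at and _s_at probe sets, 1 at an adjusted p under 0.01, and 1 to 2 with an array left out. Probe sets that rose, 4 in limma, were 1 with the replicate number as a block, 2 with equal array medians, 1 without _x_at and _s_at, 0 at an adjusted p under 0.01 (6 at an unadjusted p under 0.05), and 1 to 2 with an array left out. Other pathway genes that rose, 14 in limma, were 7 and those that fell, 21, were 13 at an adjusted p under 0.01; with an array left out 9 to 10 rose. The cause was not tested beyond the stricter threshold and the fewer arrays or probe sets. The block changed no other call count by as much: it gave 12 decreases and 2 increases among the genes. Deviations of same-numbered arrays had correlations of -0.05, 0.12 and -0.02, and those of differently numbered arrays ran from -0.08 to 0.10. With 3 arrays a group, such values cannot settle whether the numbers pair arrays. Of 638 values of 43 genes under the alternatives, 598 kept direction and side of the threshold, 13 no longer passed, 10 newly passed and 17 changed sign. The sign changes were all in genes that did not pass. GCLM was at -0.0075 with array weights and ranged from -0.038 to 0.050 with an array left out (-0.025 without sh-Ctrl replicate 2). GPX4 was at -0.0056 with array weights, -0.0029 with equal medians and -0.010 with probe sets averaged, and ranged from -0.017 to 0.019 with an array left out. TXNRD1 was at -0.0026 with quantile normalisation, -0.017 averaged and -0.038 without _x_at and _s_at. PRDX3 was at -0.0048 with quantile normalisation, PRDX6 at -0.078 averaged and GPX3 at 0.030 without _x_at and _s_at. With an array left out, GSR ranged from -0.0030 to 0.041 and ABCC2 from -0.094 to 0.044. PRDX2, at the threshold, passed under 5 alternatives. Dim genes such as GPX3 and AKR1C1 are near the level of background probe sets, which limits what their folds can show.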
